A study of Cardamine hirsuta with 24 samples.

Results

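*NRT2.1* (CARHR007910) and *AMT1;2* (CARHR056130) are 2 of the 29458 genes counted in each library of a *Cardamine hirsuta* induction experiment, and both were among the 21689 genes with enough counts to be tested. They were chosen because earlier work on these libraries had found both higher after dexamethasone, so their values in Dex against Mock are given as a description, with no test. Tests are given only for their change over time within Mock, for their joint variation within groups, and for other genes. Genome coordinates and sequences of both genes were not used here, since the build is not given in the sources used here.

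All plants carried the same transgene in the Oxford genotype, *RCOp::LhG4:GR; Op::ChCUC1:Venus*, in which the *RCO* promoter, active in foci of the leaf margin, drives a glucocorticoid-dependent activator of the boundary gene *ChCUC1*. Seedlings 12 days old were kept in liquid medium with 10 µM dexamethasone (Dex) or with 0.1% DMSO (Mock), and were harvested after 2, 4, 6 or 8 h. Each library held the shoot apices of 20 seedlings, from which cotyledons, roots and mature leaves had been removed. There were 3 independent replicates of each of the 8 groups, 24 libraries in all. In such bulk material fewer cells of a type and less RNA per cell cannot be told apart, and reads of the endogenous and the introduced *ChCUC1* were not separated.

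Plants take up nitrogen from the soil mainly as nitrate and ammonium. In *Arabidopsis thaliana*, NRT2.1 is the main transporter for high-affinity uptake of nitrate by the root, where it acts together with the partner protein NAR2.1, and its transcript responds to nitrate supply and to the nitrogen status of the plant. AMT1;2 belongs to the AMT1 family of ammonium transporters and in *Arabidopsis* roots carries ammonium in the inner cell layers. Both are known mostly from roots, a tissue that the dissected apices were meant to lack.

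The libraries held 12850309 to 22956929 reads assigned to genes, with a median of 19498035, so that 1 read corresponded to between 0.0441 and 0.0788 CPM (read counts relative to library size, after TMM scaling). *ChCUC1* had 6.18 to 11.6 CPM in the 12 Dex libraries and 0.778 to 4.40 CPM in the 12 Mock libraries, which did not overlap. No replicates agreed within sampling noise, the lowest chi-square per degree of freedom between replicates being 2.53. The libraries numbered 1 stood apart from those numbered 2 and 3. In a fit with a term for the Dex effect of replicate 1 against the others, that term was called for 29.3% of all genes tested (edgeR, adjusted p under 0.05 and a fold over 1.5). That fit includes the replicate number and treats the 4 times as independent. Dex libraries of number 1 deviated together across times (mean r of 0.68), so the share is only a description. Results are given below with and without replicate 1 where it matters.

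*NRT2.1* was highest in Dex at 2 h. It had 83.6, 6.42 and 86.1 CPM in replicates 1, 2 and 3 of Dex at 2 h, from 1754, 135 and 1915 reads. In Mock at 2 h it had 0.842, 3.93 and 2.90 CPM, from 15, 83 and 59 reads. Dex replicates 1 and 3 were thus more than an order of magnitude above every other library of that time, while Dex replicate 2 lay near the upper Mock libraries.

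At 4 h *NRT2.1* had 13.4, 1.65 and 1.73 CPM in Dex and 0.374, 1.21 and 0.933 CPM in Mock. At 6 h it had 21.4, 1.85 and 1.99 CPM in Dex and 0.324, 1.35 and 0.625 CPM in Mock. In both times Dex replicate 1 was far above the other Dex libraries, and Mock replicate 1 was the lowest library. At 8 h the Dex libraries had 6.75, 1.07 and 4.28 CPM and the Mock libraries 0.743, 0.553 and 0.841 CPM.

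The lowest Dex library of *NRT2.1* was above the highest Mock library at each of the 4 times, by 6.42 against 3.93 CPM at 2 h, and by 1.07 against 0.841 CPM at 8 h. Of all genes tested, 13.3%, 10.1%, 5.33% and 20.9% had every Dex library above every Mock library at 2, 4, 6 and 8 h. Since *NRT2.1* was chosen on this contrast, nothing is read from its place among them. At 8 h the gap was small against counting error: Dex replicate 2 had a 95% Poisson interval of 0.651 to 1.65 CPM and Mock replicate 3 one of 0.490 to 1.35 CPM, intervals that cover counting error only.

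*AMT1;2* showed a smaller range with the same leading libraries. At 2 h it had 17.6, 4.09 and 17.9 CPM in Dex replicates 1, 2 and 3, and 3.99, 1.85 and 2.41 CPM in Mock. Dex replicates 1 and 3 again stood well above the rest, and Dex replicate 2 was level with Mock replicate 1, with 95% Poisson intervals of 3.27 to 5.05 and 3.11 to 5.03 CPM.

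At 4 h *AMT1;2* had 5.04, 1.89 and 1.84 CPM in Dex and 1.37, 1.40 and 1.40 CPM in Mock. At 6 h it had 6.08, 2.06 and 1.78 CPM in Dex and 1.23, 2.1 and 1.72 CPM in Mock, and here the groups overlapped. Only Dex replicate 1 lay above the Mock range at 6 h. At 8 h it had 7.42, 2.56 and 4.60 CPM in Dex and 1.86, 1.36 and 1.14 CPM in Mock, without overlap.

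**Figure D1:**
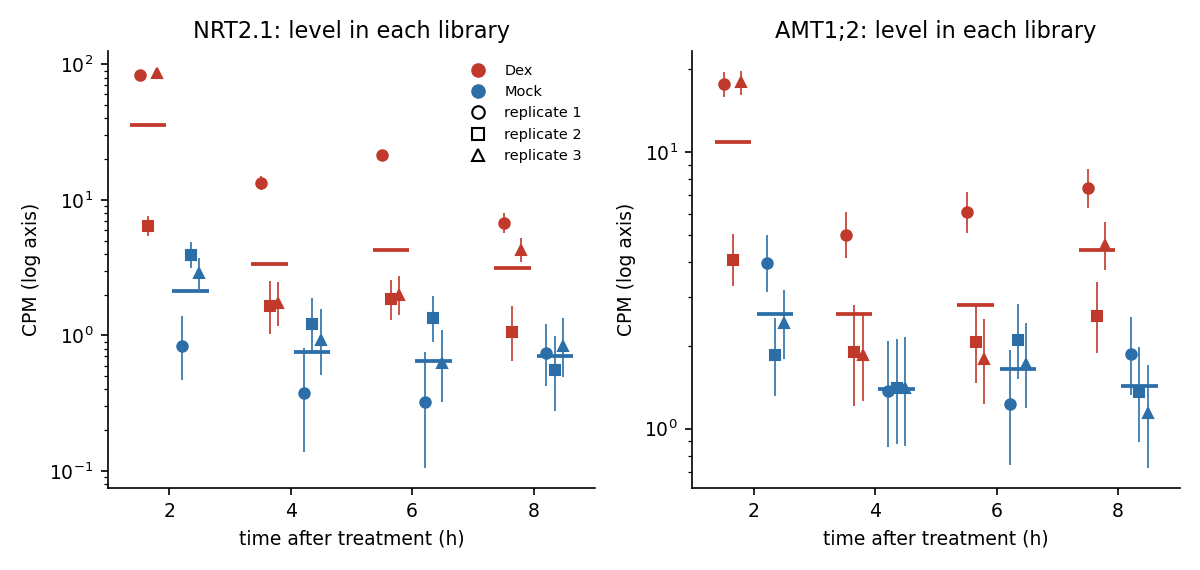
Level of *NRT2.1* (left) and *AMT1;2* (right) in each of the 24 libraries, in CPM on a log axis, against time after treatment in hours. Points are libraries with 95% Poisson intervals and horizontal bars are means of log2 CPM over 3 replicates. At 2 h Dex replicates 1 and 3 reach 83.6 and 86.1 CPM of *NRT2.1*, whereas Dex replicate 2 has 6.42 CPM.

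Ordered by mean CPM over 3 replicates, the 4 Dex groups of *NRT2.1* came before the 4 Mock groups. The means were 58.7 ± 45.3 CPM (SD, n = 3) in Dex at 2 h, then 8.42 ± 11.3 at 6 h, 5.60 ± 6.77 at 4 h and 4.03 ± 2.85 at 8 h. Mock followed with 2.56 ± 1.57 CPM at 2 h, 0.839 ± 0.425 at 4 h, 0.766 ± 0.527 at 6 h and 0.713 ± 0.146 at 8 h. Each pair of neighbours in this order had overlapping ranges, so no step of it separated all replicates of one group from all of the next.

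The order for *AMT1;2* also put the 4 Dex groups first, with 13.2 ± 7.88 CPM (SD, n = 3) at 2 h, 4.86 ± 2.44 at 8 h, 3.31 ± 2.41 at 6 h and 2.92 ± 1.83 at 4 h. Mock came next with 2.75 ± 1.11 CPM at 2 h, 1.68 ± 0.435 at 6 h, 1.45 ± 0.369 at 8 h and 1.39 ± 0.0158 at 4 h. Neighbours overlapped here as well. Dex at 8 h was thus the second highest group for *AMT1;2* and the last of the Dex groups for *NRT2.1*.

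Fitted over all 24 libraries, the difference between Dex and Mock averaged over the 4 times was 9.83-fold for *NRT2.1* (log2 fold change 3.30 ± 0.58, SE) and 2.86-fold for *AMT1;2* (1.52 ± 0.29). In that average 13.7% of all genes tested were called, 4.76% as higher in Dex and 8.89% as lower, and nothing is read from this for genes chosen on it. The test of the average treats the libraries of the 4 times as independent, although Dex libraries of numbers 1 and 2 deviated together across times. For *NRT2.1* the log2 fold change was 4.50 ± 1.1 at 2 h, 2.77 ± 1.19 at 4 h, 3.42 ± 1.17 at 6 h and 2.50 ± 1.18 at 8 h. For *AMT1;2* it was 2.27 ± 0.55, 1.09 ± 0.59, 0.97 ± 0.57 and 1.74 ± 0.57 at the same times.

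These averages depended on replicate 1. Without its 8 libraries the average was 1.83 for *NRT2.1* and 1.08 for *AMT1;2* on the log2 scale. The values at 4 and 6 h then fell to 0.65 and 0.95 for *NRT2.1*, and at 6 h to 0.00606 for *AMT1;2*. Without Dex replicate 1 of the time alone they were 1.02 and 1.27 for *NRT2.1*, and 0.17 at 6 h for *AMT1;2*.

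Taken by replicate number, *NRT2.1* was higher in the Dex than in the Mock library in 4 of 4 times for each number. The number is used here to name the libraries: over all genes, Dex and Mock libraries of one number and time did not deviate together (r from -0.59 to 0.14), whereas the Dex libraries of one number did so across times for numbers 1 and 2 (mean r of 0.68 and 0.55, and 0.00583 for number 3). The mean difference over the 4 times was 4.99 on the log2 CPM scale in replicate 1, 0.59 in replicate 2 and 2.35 in replicate 3. The ratio ran from 9.08 to 99.2 in replicate 1, from 1.37 to 1.93 in replicate 2 and from 1.85 to 29.7 in replicate 3. In replicate 3 the high value came from 2 h.

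For *AMT1;2* the mean differences were 2.02, 0.59 and 1.30 in replicates 1, 2 and 3. Its ratio in replicate 1 stayed between 3.67 and 4.94 at all 4 times, a narrower range than that of *NRT2.1*. In replicate 2 it ran from 0.979 to 2.21, the value below 1 being that of 6 h, and in replicate 3 from 1.04 to 7.43.

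**Figure D2:**
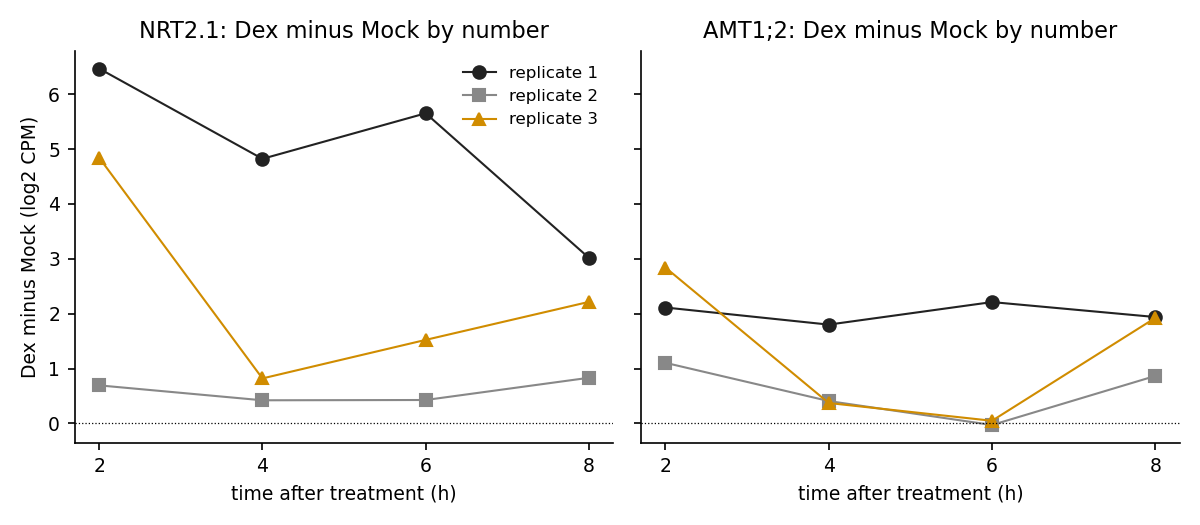
Difference between the Dex and the Mock library of the same replicate number, in log2 CPM, against time after treatment in hours, for *NRT2.1* (left) and *AMT1;2* (right). Lines join libraries of one number. Replicate 1 of *NRT2.1* is the highest line at every time and averages 4.99, and replicate 2 averages 0.59.

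The term for the Dex effect of replicate 1 against that of replicates 2 and 3 was fitted because earlier results of these data had set libraries numbered 1 apart. It was 3.59 ± 0.93 (SE) for *NRT2.1* in log2 units and 0.94 ± 0.42 for *AMT1;2*. Since the term rests on the Dex and Mock values on which both genes were chosen, it is a description, with no test. *ChCUC1* itself had a term of 1.15 ± 0.26, its Mock library of replicate 1 being the lowest at every time.

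Within Mock, both transporters were nominally highest at 2 h but no change with time passed the test. The log2 change of *NRT2.1* against 2 h was -1.62 ± 1.22 at 4 h, -1.70 ± 1.20 at 6 h and -1.85 ± 1.20 at 8 h (adjusted p = 0.370, 0.346 and 0.261 by edgeR). That of *AMT1;2* was -0.97 ± 0.59, -0.69 ± 0.58 and -0.91 ± 0.58 (adjusted p = 0.261, 0.436 and 0.251). In the same comparisons 14.7%, 15.3% and 24.3% of all genes tested were called, 8.44%, 9.06% and 15.5% as lower than at 2 h. The Mock libraries also entered the contrast on which both genes were chosen, so these tests are not free of that choice.

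Within Dex, both genes were highest at 2 h. The log2 change of *NRT2.1* against 2 h was -3.35 ± 1.03 (SE) at 4 h, -2.79 ± 1.00 at 6 h and -3.85 ± 1.06 at 8 h, and that of *AMT1;2* was -2.15 ± 0.55, -1.98 ± 0.54 and -1.44 ± 0.53. The Dex libraries of 2 h, whose replicates 1 and 3 carry the high values, also entered the contrast on which both genes were chosen, so these changes are a description, with no test. Of all genes tested 5.55%, 11.8% and 17.4% were called at 4, 6 and 8 h, 4.19%, 7.37% and 10.7% as lower than at 2 h, and nothing is read from this for the 2 transporters.

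Whether the difference between Dex and Mock depends on time was not tested for the 2 transporters. The Dex effect at 8 h minus that at 2 h was -2.01 ± 1.58 (log2, SE) for *NRT2.1* and -0.53 ± 0.78 for *AMT1;2*. The values of both genes in these libraries entered their choice, so these differences are a description, with no test. This comparison called 0% of the genes tested, or 0 genes by edgeR and 2 by DESeq2, although 937 had an unadjusted p under 0.05.

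The Mock libraries of 2 h were themselves spread widely. The highest over the lowest CPM was 4.67 for *NRT2.1* and 2.16 for *AMT1;2*, against a median of 1.24 over 21688 genes with reads there, and 95.9% and 88.7% of those genes had a smaller ratio. The 2 transporters were not ordered alike in these libraries: replicate 1 was lowest for *NRT2.1*, with 0.842 CPM, and highest for *AMT1;2*, with 3.99 CPM. Under other scalings the ratio of *NRT2.1* was 4.61 and 5.36, and that of *AMT1;2* 2.19 and 1.88.

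At the later times the ratio among Mock libraries was 3.23, 4.16 and 1.52 for *NRT2.1* and 1.02, 1.70 and 1.63 for *AMT1;2* at 4, 6 and 8 h. Among Dex libraries it was larger at every time. There it was 13.4, 8.11, 11.6 and 6.34 for *NRT2.1* and 4.37, 2.74, 3.42 and 2.90 for *AMT1;2* at 2, 4, 6 and 8 h. The biological coefficient of variation that edgeR fitted over all groups was 0.817 for *NRT2.1* and 0.454 for *AMT1;2*, above that of 98.4% and 91.3% of the genes tested, the median being 0.197.

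Over all 24 libraries the log2 CPM of both genes had a Pearson r of 0.91 and a Spearman rho of 0.83, which the choice of the genes partly sets. The question whether they varied together apart from the treatment was asked of their deviations from the 8 group means. The deviations had a Pearson r of 0.81 and a Spearman rho of 0.74 over 24 libraries, with like signs in 19 of 24. A two-sided permutation within groups (100000 draws) gave p = 0.00911 and 0.00886, each 0.0182 when adjusted over 4 tests, but it treats the libraries of the 4 times as independent. Dex replicate 1 was above and Dex replicate 2 below the group mean at all 4 times for both genes. When the numbers were exchanged at all times together within a treatment, an alternative chosen after seeing the data, the exact permutation p over 36 exchanges was 0.167 for both r and rho (adjusted 0.167, the smallest possible being 0.0278), so the relation did not pass this test.

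In the 12 Dex libraries alone r was 0.99 and rho 0.93, and in the 12 Mock libraries alone r was -0.23 and rho -0.17. This split by treatment was made after the values had been seen, its values are a description, and the difference between the correlations was not tested.

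Within replicate numbers, each over 8 libraries, r was 0.79, 0.84 and 0.90 and rho 0.81, 0.74 and 0.74 for numbers 1, 2 and 3. Deviations of one number differ between its Dex and Mock libraries, so these values hold part of the contrast on which the genes were chosen and are given with no test. Without the 2 libraries farthest from the median of *NRT2.1*, Dex replicate 2 of 2 h and Dex replicate 1 of 6 h, r over all groups was 0.69. Among all 21689 genes tested, *AMT1;2* ranked 852 by the r of its deviations with those of *NRT2.1*, and *NRT2.1* ranked 276 for *AMT1;2*. Many other genes thus followed each of them more closely within groups.

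**Figure D3:**
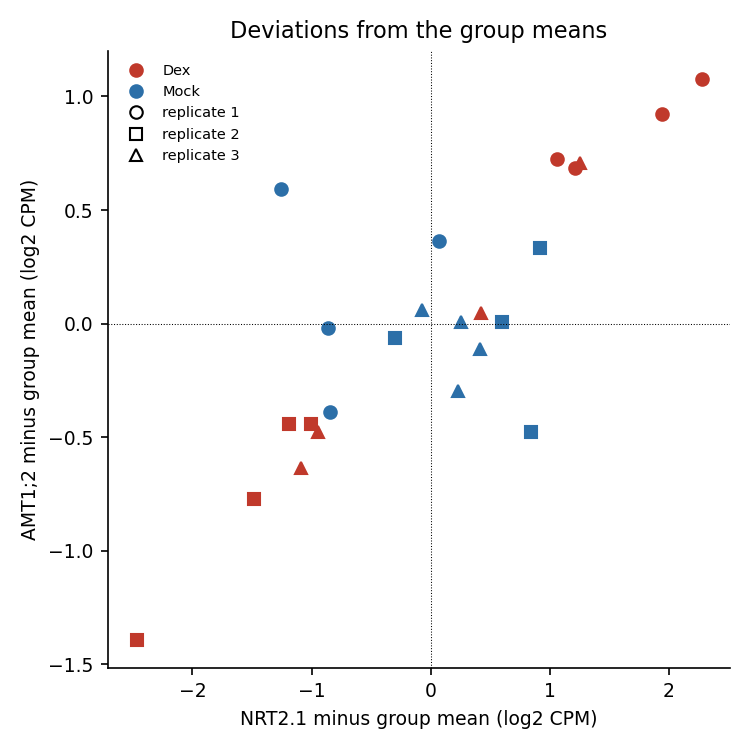
Deviation of each library from the mean of its group in log2 CPM, *NRT2.1* on the horizontal and *AMT1;2* on the vertical axis, for 24 libraries coloured by treatment and shaped by replicate number. The 12 Dex libraries lie along a line (r of 0.99) and the 12 Mock libraries do not (r of -0.23).

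Root genes were read in the same libraries, since both transporters are known from roots. Of 30 root markers 15 could be paired with a *C. hirsuta* identifier and 13 were tested, 9 of them paired only through lists of genes found to differ in these libraries. The summed level of the 15 was 143 to 342 CPM in Dex and 119 to 191 CPM in Mock at 2 h, and 77.5 to 173 CPM at later times. *AKT1*, a potassium channel (mean 71.4 CPM), and *PHT1;4*, a phosphate transporter (33.4 CPM), were present in every library and gave most of the sum after 2 h. At 2 h the other markers gave most of it in Dex replicates 1 and 3 (263 of 342 and 252 of 333 CPM). They also did so in Mock replicate 2 (108 of 191 CPM).

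Averaged over time, *AKT1* fell by 0.87 ± 0.19 in log2 units in Dex against Mock (edgeR, adjusted p = 0.00542), and *PHT1;4* had a difference of 0.57 ± 0.18 (adjusted p = 0.0201), under the fold of 1.5. Of the 13 tested markers 1 was called as higher and 1 as lower there, beside 4.76% and 8.89% of all genes. In sign alone, 12 of the 13 were higher in Dex and 1 was lower. Their median log2 fold change was 1.57, against 0.04 over all genes tested.

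The 13 root markers without *AKT1* and *PHT1;4* were set apart after these values had been seen. They include *TIP2;3*, *PIP2;4* and *CASP1*, which encode water channels and a protein of the Casparian strip. Their summed level at 2 h was 263, 59.5 and 252 CPM in Dex replicates 1, 2 and 3 and 5.50, 108 and 66.7 CPM in Mock. At 4 to 8 h it was 5.09 to 31.1 CPM in Dex and 2.46 to 9.60 CPM in Mock, with 0 to 6 and 2 to 7 of the 13 at 0 reads. Of the 13 tested root markers, *AKT1* and *PHT1;4* included, 11 were called as lower at 8 than at 2 h in Mock and 11 in Dex, beside 15.5% and 10.7% of all genes. *PHT1;4* was called as higher at 8 h in Mock (1.34 ± 0.36, adjusted p = 0.00942 by edgeR), and *AKT1* had changes of 0.29 ± 0.37 in Mock and 0.15 ± 0.37 in Dex that were not called (adjusted p = 0.592 and 0.815).

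At 2 h the transporters and the root markers therefore moved together in part. Dex replicates 1 and 3 were highest in both, and Mock replicate 1 was lowest in root markers and in *NRT2.1*. Mock replicate 2, however, had more root marker reads than Dex replicate 2 (108 against 59.5 CPM) and less *NRT2.1* (3.93 against 6.42 CPM) and *AMT1;2* (1.85 against 4.09 CPM). *AMT1;2* was highest among the Mock libraries of 2 h in replicate 1, where these markers were lowest.

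After 2 h the root hair genes among them (*COBL9*, *EXPA18*, *RHD6*, *LRX1* and *PRP3*), also set apart after their values had been seen, were close to 0. Their summed level was 0 to 1.04 CPM in the 9 Mock libraries of 4 to 8 h and 0.157 to 1.09 CPM in Dex replicates 2 and 3. In Dex replicate 1 it was 7.88, 2.42 and 1.71 CPM at 4, 6 and 8 h, where *NRT2.1* had 13.4, 21.4 and 6.75 CPM. *NRT2.1* was thus higher at 6 than at 4 h in Dex replicate 1 while these genes were lower, and at 2 h it had been 83.6 CPM beside 103 CPM of root hair genes.

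Without the 6 libraries of 2 h, an alternative chosen after seeing the data, the average difference between Dex and Mock was 2.89 ± 0.62 on the log2 scale for *NRT2.1* and 1.27 ± 0.30 for *AMT1;2*, against 3.30 and 1.52 with all times. The part of root tissue in the values at 2 h and at later times was not tested. Both paired shoot apex markers, *KNAT1* and *ANT*, were present in all libraries at a summed level of 29.1 to 50.0 CPM, and the summed level of 4 leaf photosynthesis genes was between 6382 and 9966 CPM at 2 h and between 1485 and 2152 CPM at 8 h.

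**Figure D4:**
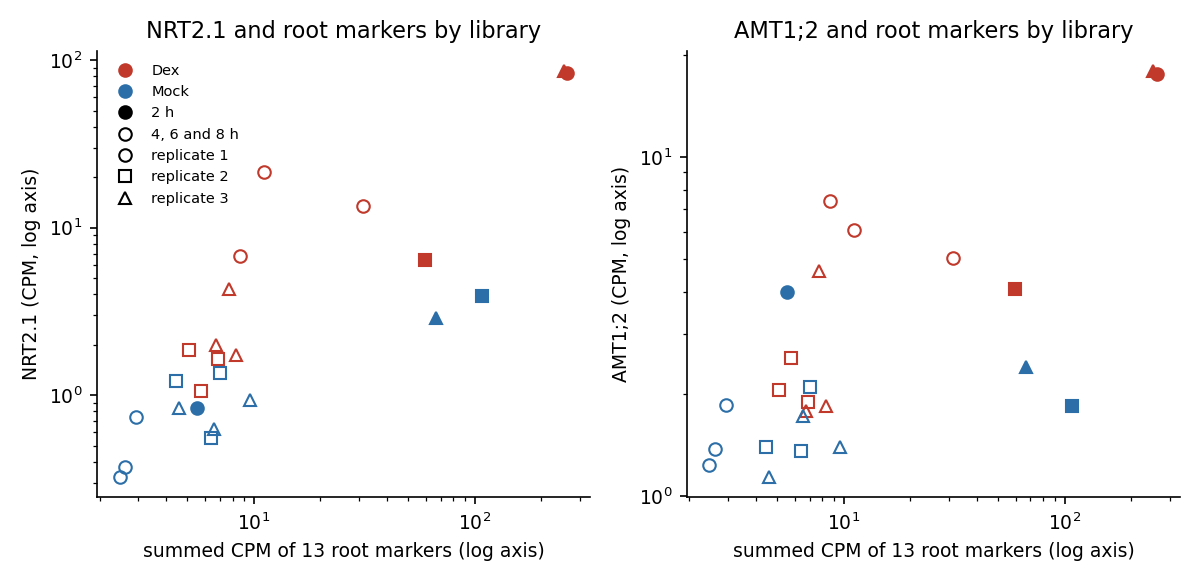
Level of *NRT2.1* (left) and *AMT1;2* (right) in CPM against the summed CPM of 13 root markers, both on log axes, for each of the 24 libraries. The 13 are the paired markers without *AKT1* and *PHT1;4*, set apart after the values had been seen. Filled points are 2 h and open points 4, 6 and 8 h. Dex replicates 1 and 3 of 2 h lie at the upper right, with 263 and 252 CPM of root markers, whereas Dex replicate 1 of 6 h has 21.4 CPM of *NRT2.1* at 11.1 CPM of root markers.

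The other genes of nitrogen uptake and use were called in both directions. Of 68 genes written down for nitrate transport, ammonium transport, nitrogen assimilation and its regulation, 33 could be paired and 30 besides *NRT2.1* and *AMT1;2* were tested. In the average of the 4 times 6 were higher in Dex, 6 were lower and 18 were not called, beside the 13.7% called of all genes. The median log2 fold change was -0.02, against 0.04 over all genes tested. Of the 12 called genes 10 belong to the 15 that were paired only through lists of differential genes, and 2 to the other 15. Those lists had been drawn up from these same libraries, so the share called is not independent of them.

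Of the 11 other nitrate transporters tested, 5 were called as higher and 1 as lower, beside 4.76% and 8.89% of all genes. Of these 5, 4 were paired only through those lists (*NRT1.5*, *NRT2.3*, *NAXT1* and *NRT1.1*). *NRT1.5*, which loads nitrate into the root xylem in *Arabidopsis*, rose by 1.58 ± 0.36 in log2 units (edgeR, adjusted p = 0.00638), and *NRT2.5*, a high-affinity carrier of the same family as *NRT2.1*, by 1.05 ± 0.31 (adjusted p = 0.0158). *NRT2.3* rose by 0.93 ± 0.24, the nitrate excretion transporter *NAXT1* by 0.88 ± 0.22 and *NRT1.1*, the dual-affinity transporter and nitrate sensor, by 0.68 ± 0.19 (adjusted p = 0.00891, 0.00785 and 0.0115). *NRT1.8*, which removes nitrate from the xylem, fell by 0.68 ± 0.21 (adjusted p = 0.0182). Without replicate 1 the log2 fold changes were 0.61 for *NRT1.5*, 0.32 for *NRT2.5*, 0.50 for *NRT2.3*, 0.35 for both *NAXT1* and *NRT1.1* and -0.46 for *NRT1.8*. These 6 were not called in that fit, which called only 149 of all genes.

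Dex replicate 1 was the leading library for *NRT2.5* as well. The gene had 15.3, 3.70 and 3.11 CPM in Dex at 4 h and 15.6, 3.55 and 4.56 CPM in Dex at 6 h, against 1.25, 3.75 and 4.13 and 1.1, 3.55 and 4.01 CPM in Mock. Dex replicate 1 alone lay above the Mock range at 4 h, and Mock replicate 1 was lowest at both times. *NRT1.5* had 34.4 to 90.5 CPM in the 6 libraries of 2 h and 0.843 to 15.6 CPM in the other 18, a fall that was called from 2 to 8 h in Mock (-5.79 ± 0.82, adjusted p = 4.82e-05 by edgeR) and in Dex (-4.04 ± 0.72, adjusted p = 0.000661). Of the nitrate transporters that were not called, *NRT1.7*, which moves nitrate out of old leaves, had a log2 fold change of -0.49 ± 0.13 and *NRT1.4* one of 0.46 ± 0.13 in Dex over Mock, both under the fold of 1.5.

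Of the 3 other ammonium transporters tested, 1 was called in the average of the 4 times, as lower, beside 8.89% of all genes. *AMT2;1* fell by 0.67 ± 0.18 (adjusted p = 0.0097 by edgeR; -0.23 and not called without replicate 1), and *AMT1;1* had a log2 fold change of -0.13 ± 0.10 (adjusted p = 0.297). *AMT1;5* had 5.86, 0.761 and 4.27 CPM in Dex at 2 h and 0, 0.900 and 0.295 CPM in Mock, and 0 to 0.366 CPM in every library of later times. Dex replicates 1 and 3 of 2 h were thus the highest for *AMT1;5* as for *AMT1;2*. In Dex it was called as lower than at 2 h at 4, 6 and 8 h (adjusted p = 0.0465, 0.00944 and 0.00429 by edgeR). *AMT1;4* had at most a few reads in any library and was not tested.

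Among the genes of assimilation *GLN1;2*, a cytosolic glutamine synthetase, rose by 1.19 ± 0.29 (adjusted p = 0.00752 by edgeR). It had 340, 69.4 and 308 CPM in Dex at 2 h and 21.5, 90.3 and 67.4 CPM in Mock, so that Dex replicate 2 lay within the Mock range. *GDH2*, a glutamate dehydrogenase, fell by 1.34 ± 0.29 and *RFNR1*, a root-type ferredoxin reductase, by 1.15 ± 0.24 (adjusted p = 0.00579 and 0.00536). Without replicate 1 these 3 values were 0.52, -0.64 and -0.62. The nitrate reductase *NIA2* and the plastid glutamine synthetase *GLN2* had log2 fold changes of 0.14 ± 0.07 and 0.06 ± 0.06 and were not called (adjusted p = 0.133 and 0.441).

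Of 7 regulators, *CBL1*, a calcium sensor that acts with kinases on nitrate transport, fell by 1.1 ± 0.26 and *HHO1*, a repressor of nitrogen starvation genes, by 0.84 ± 0.24 (adjusted p = 0.00689 and 0.0127 by edgeR), against -0.43 and -0.33 without replicate 1. *HHO3* had a log2 fold change of -0.55 ± 0.17 (adjusted p = 0.0191) that fell short of the fold threshold, and *BT2* one of -0.30 ± 0.15 (adjusted p = 0.109). Without replicate 1, edgeR called 0 of the 30 nitrogen genes as higher and 2 as lower, *GDH2* and *RFNR1*, while 7 were higher and 7 lower at an unadjusted p under 0.05. Over all genes that fit called only 149, while 4409 had an unadjusted p under 0.05. The loss of calls was thus general and not particular to the nitrogen genes.

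**Figure D5:**
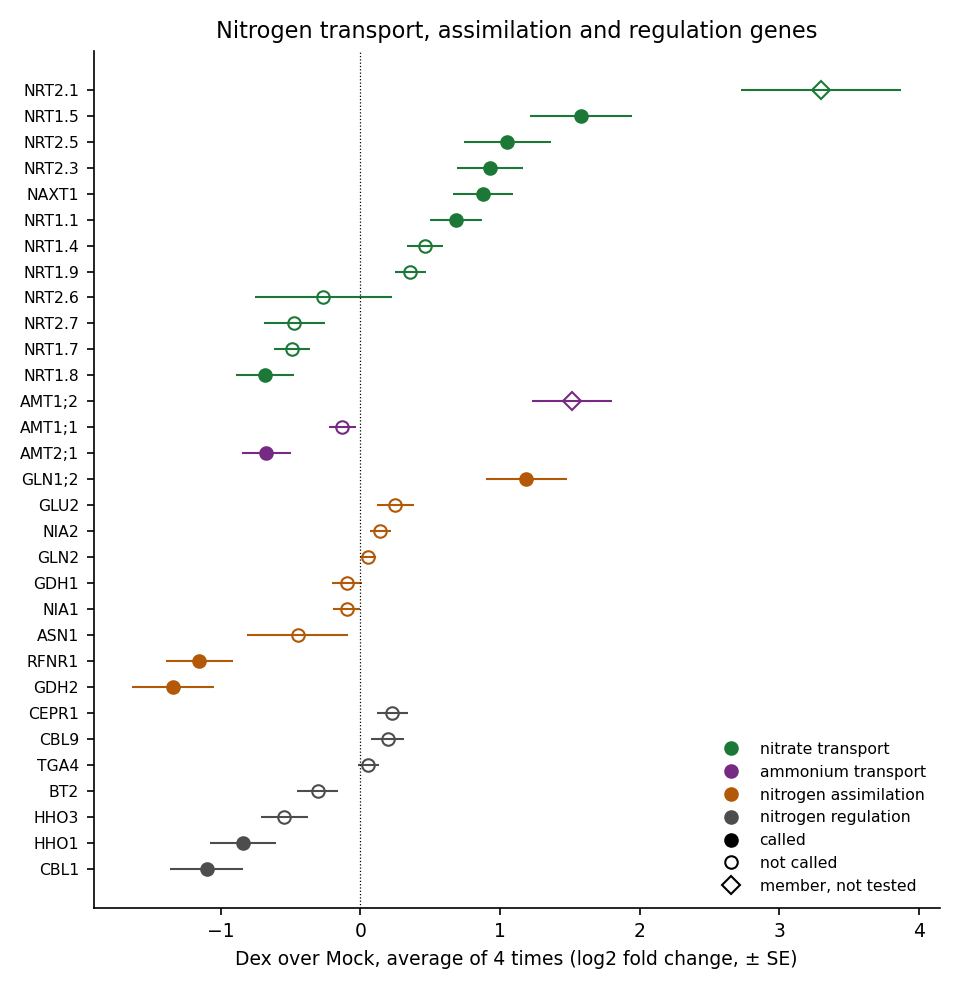
Log2 fold change of Dex over Mock averaged over the 4 times, with its SE, for *NRT2.1*, *AMT1;2* and the other nitrogen genes tested except *AMT1;5*, whose reads were nearly all at 2 h. Colours mark the list, filled points genes called by edgeR, and open diamonds the 2 transporters, which were not tested here. The 2 transporters, at 3.30 and 1.52, lie toward the right of lists whose 12 called genes are 6 higher and 6 lower.

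Over time the nitrogen genes went down more often than up. From 2 to 8 h in Mock 1 of the 30 was called as higher and 10 as lower, beside 8.88% and 15.5% of all genes, and in Dex 2 and 9, beside 6.67% and 10.7%. The glutamine synthetase *GLN1;2* was among those that fell in both, by 1.74 ± 0.59 in Mock (adjusted p = 0.0311 by edgeR) and by 2.95 ± 0.61 in Dex (adjusted p = 0.00198). *NRT1.7* rose in both, by 1.04 ± 0.26 and 1.28 ± 0.26 (adjusted p = 0.00477 and 0.00157).

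The genes most like *NRT2.1* in log2 CPM over the 24 libraries, among 3518 tested genes with a paired name, are given with Pearson r as a description. They were AT3G01190, a peroxidase (r = 0.96), AT3G01120, cystathionine gamma-synthase of methionine synthesis (0.94), AT5G54145 (0.93), *GLN1;2* (0.92) and AT3G18180 (0.92), named after their *Arabidopsis* counterparts. Those most like *AMT1;2* were AT5G12860, a dicarboxylate transporter of the plastid (0.92), the expansin *EXPB3* (0.92), *NRT2.1* (0.91), the zinc transporter *ZIP2* (0.89) and *SKS15* (0.88). Of these 10 likenesses, 7 concern genes whose pair came only from those lists of differential genes.

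By deviations from the group means the closest to *NRT2.1* were the cytokinin response factor *CRF2* (r = 0.96), AT1G60780 (0.96), AT1G72730 (0.94), *MAT3*, an S-adenosylmethionine synthetase (0.94), and AT1G65030 (0.94). The closest to *AMT1;2* were *IPT3*, an enzyme of cytokinin synthesis (0.91), *ARR3*, a cytokinin response regulator (0.91), *SAV3*, an enzyme of auxin synthesis (0.89), *CRF2* (0.88) and AT5G12860 (0.88). The points share libraries and depth, and unnamed genes were ranked above these, up to 10 for *NRT2.1* and 26 for *AMT1;2*. *CRF2* was the gene that stood in both lists.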

How the data were processed

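Directional poly(A) libraries were made from 20 seedlings each. Per the labels and methods, the authors aligned reads with STAR 2.4.2a, counted them per gene with HTSeq 0.5.4p1 and compared groups with DESeq. The deposited values are raw counts per gene and library, while the sources used here name no build, annotation or strand setting. Rows of reads without a gene (5.65% to 15.8% of all reads) or with more than 1 gene were left out.

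Counts were fitted with edgeR 4.0.16 (R 4.3.3; TMM, filterByExpr with a minimum count of 10, quasi-likelihood test, 1 coefficient for each of 8 groups over 24 libraries), with Benjamini-Hochberg adjustment over 21689 genes. Genes were called at an adjusted p under 0.05 and a fold over 1.5, the limits of the study. Figures and correlations used log2 CPM with a prior count of 2 and permutations in numpy 2.4.6. The fits recovered known changes when tested on simulated data. The simulated libraries were independent, with the same spread for all genes and no effect of replicate number. That check therefore does not cover the departure of replicate 1 or genes of wide spread. Alternatives were DESeq2 1.42.0, RLE scaling, no filter on low counts, the replicate number as a block, each library or number left out, the libraries of 1 time alone and a prior count of 0.5. p-values rest on 1 estimate of the spread per gene, shared by the 8 groups of 3 libraries and moderated by that of other genes. They do not measure the spread of the compared groups alone, and they treat libraries of different times as independent. Dex libraries of numbers 1 and 2 deviated together across times (mean r of 0.68 and 0.55), which the fits without a replicate block did not model.

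Replicate numbers were taken as names: deviations of Dex and Mock libraries of the same number and time had correlations from -0.59 to 0.14, and libraries of one number across times had mean correlations of 0.68, 0.55 and 0.00583 in Dex and 0.26, 0.16 and 0.08 in Mock. Names come from 4021 pairs of *C. hirsuta* and *Arabidopsis* identifiers in the study's tables, 1846 of them only in tables of differentially expressed genes. In the reference table of gene names 0 identifiers matched. *NRT2.2*, a close copy of *NRT2.1* in *Arabidopsis*, had no pair, so shared reads were not checked. Named besides both transporters and *ChCUC1* were the nitrogen genes called in the average, at most 2 others per list by mean CPM, the 5 root markers of highest mean CPM, and the 5 genes of highest r. Both transporters and all lists were chosen with earlier results of these data known.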

Additional observations from a re-analysis of the deposited data

How the results depend on the processing

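Depth limited *NRT2.1* most in Mock, where 5 to 83 reads stood behind a value. Of 1071 values under alternatives 969 kept their direction and side of the threshold or moved by less than the spread, including all 78 of the changes with time in Mock, and 1 changed sign: the r of deviations, -0.23 in Mock alone. The r of 0.81 over all libraries did not pass the threshold when numbers were exchanged at all times together (adjusted p = 0.167 by exact permutation).

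Leaving out 1 library of the groups compared or 1 replicate number gave Dex over Mock of 1.83 to 4.13 for the average of *NRT2.1*, 0.65 to 3.58 at 4 h and 0.95 to 4.61 at 6 h, and 0.00606 to 1.44 at 6 h for *AMT1;2* (log2 scale), the lowest in each case without replicate 1. In Dex it gave *NRT2.1* changes against 2 h of -5.11 to -2.55 at 4 h, -4.94 to -1.95 at 6 h and -4.45 to -3.41 at 8 h, and *AMT1;2* changes of -2.81 to -1.62, -2.78 to -1.41 and -1.89 to -1.11.

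With the replicate block the 2962 genes called in the average became 2812. For the 2 transporters, which have no test there, the average was then 2.85 for *NRT2.1* and 1.39 for *AMT1;2* on the log2 scale.

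Of all genes, the average called 149 without replicate 1, 4809 without replicate 2 and 0 without replicate 3 by edgeR, where 8601 had an unadjusted p under 0.05. Leaving out single libraries of the groups compared moved the calls in Mock against 2 h to 1555 to 4185, 2031 to 3293 and 3893 to 5119 at 4, 6 and 8 h (3195, 3319 and 5279 with all), and those in Dex to 439 to 1443, 1681 to 3045 and 2740 to 3940 (1204, 2555 and 3778 with all). Nitrogen genes called in the average numbered 0 to 6 higher and 0 to 8 lower when a library or a replicate number was left out (0 of either without replicate 3, with 9 and 8 at an unadjusted p under 0.05), and 3 were lower without the libraries of 2 h. From 2 to 8 h they numbered 0 to 1 higher and 5 to 12 lower in Mock and 0 to 5 and 1 to 9 in Dex, the counts of 0 higher having 1 gene in Mock and 2 in Dex at an unadjusted p under 0.05. Of 384 values for single nitrogen genes 30 lost their call. The causes were not tested.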
